A study of Mus musculus with 6 samples.

Results

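The nuclei described here are excitatory nuclei of the aged mouse hippocampus that carried several transcripts of a subicular pyramidal neuron type, marked by Fn1 and Ndst4. They were chosen by detected transcripts: a nucleus had at least 500 unique molecular identifiers (UMIs, counted RNA molecules), at most 5% of them from mitochondrial genes, at least 1 UMI of Slc17a7, at most 1 UMI of Gad1 and Gad2 together, and a UMI of at least 3 of the 5 genes Fn1, Ndst4, Klhl1, Fras1 and Cdh6. This rule found 1627 members among 53294 nuclei past the filters, of 53824 deposited barcodes. The 28827 nuclei that met the Slc17a7 and Gad conditions are called excitatory nuclei, and the 27200 of them with fewer markers are called other excitatory nuclei.

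Frozen hippocampi of mice aged 18 to 20 months were processed by single-nucleus RNA sequencing with 10x Genomics 3' chemistry. The sevoflurane group had breathed 2% sevoflurane in 60% oxygen at 1 L per min for 6 h, and the oxygen group 60% oxygen alone at the same flow for 6 h. Each group had 3 libraries, which the labels give as separate samples without naming the animal behind each, so p-values measure the spread between these libraries. The labels name no strain, genotype, allele or second agent for either group.

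Deposited totals were 61398346 to 72636984 UMIs in the sevoflurane libraries and 56334621 to 70077201 UMIs in the oxygen libraries. The members gave 3552980 to 4951678 UMIs per sevoflurane library and 3190560 to 5502491 UMIs per oxygen library. Between any pair of libraries 15 to 33 barcodes were shared, and 0 of the members' barcodes were. By the labels libraries 1 and 2 of each group came from male mice and library 3 of each group from female mice, and 3 libraries went against this. In the members, sevoflurane 1, labelled male, held 1106 CPM (UMIs scaled to a fixed library total) of Xist, the RNA that silences an X chromosome in females, against at most 0.844 CPM in the other 5 libraries. Its sum of 4 Y-linked genes was 0.202 CPM, against 320 to 349 CPM in the other 5 libraries, among them sevoflurane 3 and oxygen 3, both labelled female. Sex is therefore not split evenly between the groups, and the counts without each of these libraries are given with the response.

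The subiculum is the main output station of the hippocampus: its pyramidal cells receive the axons of CA1 and project to the entorhinal cortex, the nucleus accumbens, the hypothalamus and other targets. Its pyramidal cells fall into several transcriptional types, and Fn1 marks one of them in the mouse. Sevoflurane is an inhaled anaesthetic that strengthens GABA-A receptor currents, opens two-pore potassium channels and weakens transmission through NMDA receptors.

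The 5 markers code for unlike proteins. Fn1 encodes fibronectin, a matrix protein bound by integrins. Ndst4 encodes an N-deacetylase and N-sulfotransferase that modifies heparan sulfate, the sugar chain of cell surface and matrix proteoglycans. Fras1 encodes a basement membrane protein of the Fraser complex, Cdh6 a classical cadherin, and Klhl1 an actin-binding Kelch-like protein of neurons. These genes chose the nuclei, so their levels are a description.

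Ndst4 and Fras1 were the markers most members shared, with a UMI in 92.9% and 92.7% of members. Cdh6 was found in 71.4% of members, Klhl1 in 45.3% and Fn1 in 42.1%. In the other excitatory nuclei a UMI of Ndst4 was present in 24.0%, of Fras1 in 21.3%, of Cdh6 in 9.38%, of Fn1 in 4.88% and of Klhl1 in 2.77%. UMIs of these genes were also found in nuclei that should lack them: in 4295 nuclei carrying an oligodendrocyte marker list, Ndst4 was found in 7.12%, Cdh6 in 6.92%, Fras1 in 4.31%, Fn1 in 2.93% and Klhl1 in 0.978%, at a median of 2374 UMIs per nucleus against 13932 in members. The other excitatory nuclei had a median of 6949 UMIs, so these shares were taken at unlike depths. In CPM, Fn1 stood at 12.9 in other excitatory nuclei, 15.2 in oligodendrocyte-list nuclei and 18.4 in nuclei with a microglia list, and Cdh6 at 21.4, 31.4 and 19.4 CPM in the same sets. The source of the UMIs in the glial nuclei was not tested.

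The members did not form 1 cluster. When the excitatory nuclei were clustered by their variable genes into 31 clusters, 788 members, or 48.4%, fell into a single cluster of 896 nuclei, of which 87.9% were members. This cluster is called the main cluster. All 5 markers stood among its 10 leading genes, beside Kctd8, Rab38 and Trmt9b; since it was picked as the cluster with most of the nuclei those markers chose, this is no independent check of the label. The other 839 members, or 51.6%, lay elsewhere. A cluster led by Galntl6, Stac and Egfl6 held 249 of them, one led by Pde11a, Adamtsl1 and Adra1a held 231, and one led by Kcnh8, Sntb1 and Cntn6 held 70. The remaining 289 members, 17.8% of all, were spread over further clusters. None of the 5 clusters that held most of these other members had more than 1 of the 5 markers among its 10 leading genes. These are the genes of the rule, so the identity of the members there was not tested.

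The share of members in the main cluster was nearly the same in every library: 46.1%, 51.1% and 46.1% in sevoflurane 1, 2 and 3, and 48.5%, 47.8% and 52.0% in oxygen 1, 2 and 3. The libraries of the groups overlapped in this share.

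Which markers a nucleus carried went with its cluster. The rule's genes were not kept out of the clustering, so this relation is partly built in and is given as a description. The most frequent set was Ndst4, Fras1 and Cdh6 alone, in 400 members, of which 17.0% lay in the main cluster. With Fn1 added to these genes the set was found in 255 members, of which 92.2% lay in the main cluster. Ndst4, Klhl1 and Fras1 alone occurred in 259 members, with 30.1% in the main cluster, and with Cdh6 added in 221 members, with 75.6%. All 5 markers were present in 94 members, of which 90.4% lay there. By number, nuclei just inside the rule, with 3 markers, numbered 999 and lay in the main cluster in 26.4% of cases, and the 534 nuclei with 4 markers in 82.2%. Just outside the rule, 3906 nuclei had 2 markers and 2.00% of them lay in the main cluster.

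**Figure D1:**
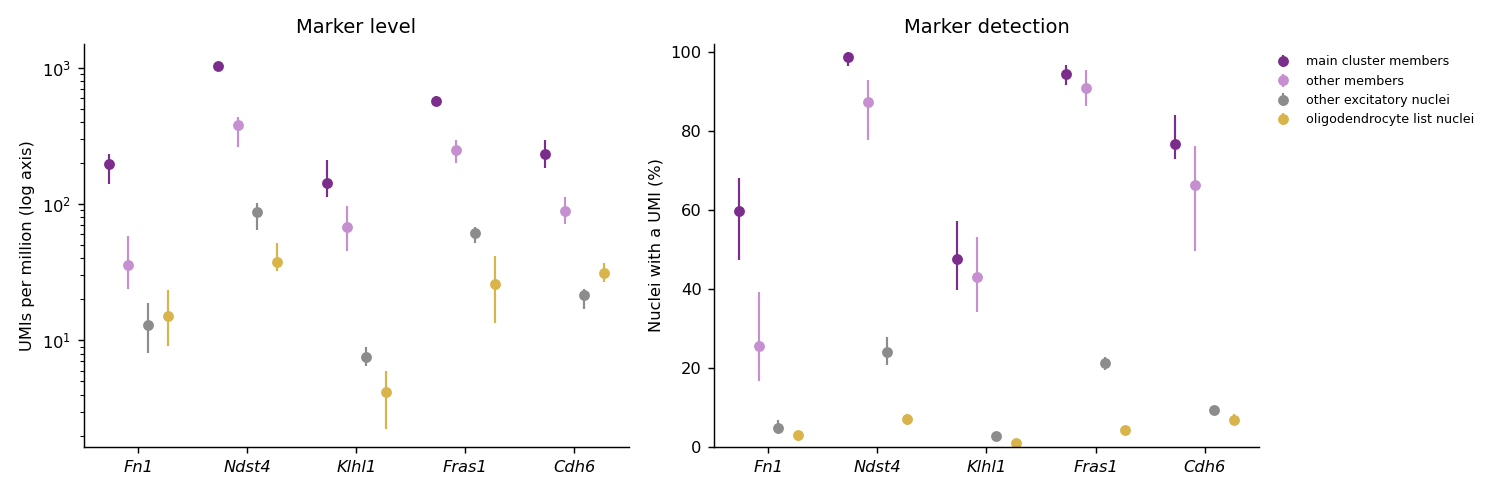
Level (left, CPM on a log axis) and detection (right, percent of nuclei with a UMI) of the 5 markers in main-cluster members, the other members, other excitatory nuclei and oligodendrocyte-list nuclei. Points are pooled over libraries and bars run over the lowest and highest library; Ndst4 stood at 1037 CPM in main-cluster members, 379 CPM in the other members and 87.3 CPM in other excitatory nuclei.

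Within the members, main-cluster nuclei had more of every marker, which is a description too, since the clustering could use these genes. Fn1 was at 197 CPM in main-cluster members and 35.8 CPM in the other members, and Ndst4 at 1037 CPM in main-cluster members and 379 CPM in the other members. Fras1 stood at 571 CPM in main-cluster members against 250 CPM in the other members, Cdh6 at 234 against 89.6 CPM, and Klhl1 at 143 against 67.8 CPM. Depth did not separate the sets, whose median UMIs per nucleus were 14043.5 in main-cluster members and 13827 in the other members.

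Per library, Fn1 in members was at 79.2, 119 and 125 CPM in sevoflurane 1, 2 and 3, and at 116, 132 and 102 CPM in oxygen 1, 2 and 3. Ndst4 was at 704, 711 and 568 CPM in the sevoflurane libraries and at 704, 756 and 697 CPM in the oxygen libraries. Sevoflurane 1 had the lowest Fn1 and sevoflurane 3 the lowest Ndst4. Klhl1 was at 130, 106 and 87.2 CPM under sevoflurane and 75.2, 101 and 122 CPM under oxygen. Fras1 was at 401, 425 and 349 CPM under sevoflurane and 360, 439 and 446 CPM under oxygen, and Cdh6 at 186, 159 and 161 CPM under sevoflurane and 123, 140 and 186 CPM under oxygen. For each of the 5 genes the libraries of the groups overlapped on this scale, which divides by the members' UMIs. Slc17a7, the vesicular glutamate transporter that the rule required, was at 172, 183 and 161 CPM under sevoflurane and 207, 191 and 194 CPM under oxygen, with no overlap. With library sizes scaled by edgeR so that most genes do not change (TMM), as used for the response, the groups did not overlap for Ndst4 either, at 551 to 697 CPM under sevoflurane and 716 to 796 CPM under oxygen. On that scale the log2 fold change was -0.30 (SE 0.08) for Slc17a7 and -0.22 (SE 0.09) for Ndst4. These genes chose the nuclei, so their values are a description and no test of them is given.

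Beyond the rule's genes, members differed from the other excitatory nuclei in a set of channel, adhesion and signalling genes, given here as a description because the clustered and chosen nuclei share their genes. Ratios are of CPM with 5 CPM added to both sides. Kctd8, an auxiliary subunit of GABA-B receptors, had the highest ratio, 7.86, at 259 CPM in members and 28.6 CPM in other excitatory nuclei. In main-cluster members it reached 470 CPM, against 67.0 CPM in the other members. Stac, an adaptor of voltage-gated calcium channels, followed at 164 CPM in members and 26.5 CPM in other excitatory nuclei. Ndst3, a second heparan sulfate N-sulfotransferase, stood at 590 CPM in members and 144 CPM in other excitatory nuclei, a ratio of 4.01 that ran between 3.68 and 4.30 over the libraries. Grm8, a presynaptic metabotropic glutamate receptor, was at 703 CPM in members and 190 CPM in other excitatory nuclei, and Cadps2, which primes dense-core vesicles, at 809 CPM in members and 202 CPM in other excitatory nuclei. Some of these genes were also raised in the other excitatory nuclei that carried a CA1 marker list. There Ndst3 was at 344 CPM, Cadps2 at 412 CPM and Stac at 79.5 CPM, while Kctd8 was at 29.8 CPM and Grm8 at 182 CPM.

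Also among the 15 highest ratios were Rab38, Trmt9b, Tox, Astn2, Ptprt, Ldb2, Etv5, Shoc1 and Cntn4, with ratios of 3.21 to 4.28. Tox, a transcription factor, was at 639 CPM in main-cluster members and 179 CPM in the other members. Ptprt, a receptor tyrosine phosphatase, was at 1324 CPM in main-cluster members and 235 CPM in the other members, beside 217 CPM in other excitatory nuclei. The lowest ratios belonged to Prr5l, Ccbe1, Zfp536, Plcl1, Car10, Glis3, Synpr and Cux2, at 0.213 to 0.268. Synpr, a synaptic vesicle protein, was at 63.7 CPM in members and 252 CPM in other excitatory nuclei, and at 17.8 CPM in main-cluster members. Among the other excitatory nuclei, Synpr was at 48.4 CPM in those with a CA1 marker list and 569 CPM in those with a dentate granule list. Glis3, Zfp536 and Plcl1 were also lower in CA1-list nuclei than in members. Prr5l was nearly equal there, and Ccbe1, Car10 and Cux2 were higher. The level of Prr5l in other excitatory nuclei depended on nuclei that carried glial transcripts. Without other excitatory nuclei that carried 3 or more markers of a non-neuronal list, Prr5l was at 3.64 CPM there, beside 10.9 CPM in members. Prr5l is itself a gene of the oligodendrocyte list, so this removal selects against it. The members were not filtered in the same way, so the direction of its contrast cannot be read from these values.

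Of the 8 genes of a further subicular list, which the rule did not use, 5 were higher in members than in other excitatory nuclei, all at low levels. At least 3 of the 8 were found in 4.70% of main-cluster members, 2.64% of members and 0.129% of other excitatory nuclei. Slc17a6, the second vesicular glutamate transporter, was at 44.6 CPM in main-cluster members, 11.3 CPM in the other members and 9.26 CPM in other excitatory nuclei. In oligodendrocyte-list nuclei it was at 11.0 CPM. Teddm3 was at 16.3 CPM in main-cluster members, 2.12 CPM in the other members and 0.494 CPM in other excitatory nuclei. Nts, the neurotensin gene, was at 12 CPM in main-cluster members, 2.12 CPM in the other members and 2.25 CPM in other excitatory nuclei. Slc17a6, Teddm3 and Nts are among the 5 genes that were higher in members. The CA1 list of 6 genes was higher as well, with a summed level of 552 CPM in main-cluster members, 645 CPM in all members and 363 CPM in other excitatory nuclei, and 4 of the 6 genes higher in members. At least 3 CA1 genes were found in 47.8% of main-cluster members and 15.2% of other excitatory nuclei. Mpped1 of that list was at 229 CPM in main-cluster members and 101 CPM in other excitatory nuclei. A parahippocampal list of 4 genes with Tshz2 summed to 1367 CPM in main-cluster members, 965 CPM in all members and 559 CPM in other excitatory nuclei, and at least 3 of its genes were found in 18.4% of main-cluster members and 3.72% of other excitatory nuclei. Members are deeper than other excitatory nuclei, and these shares were not thinned to equal depth. The data thus held transcripts of several pyramidal types in the members, which are called here by the rule. The dentate granule gene Prox1 was at 8.63 CPM in main-cluster members, 41.1 CPM in the other members and 91.9 CPM in other excitatory nuclei.

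Transcripts of other cell types were also found in members. At least 3 markers of a non-neuronal list were found in 133 members (8.17%) and 32 main-cluster members (4.06%), against 6006 other excitatory nuclei (22.1%). A Scrublet doublet score over 0.3 was given to 64 members (3.93%), 12 main-cluster members (1.52%) and 769 other excitatory nuclei (2.83%). None of these nuclei was removed, and the response without them is given with the alternatives. Over the members, the summed level of the 5 choroid plexus genes was 11.9 to 13.2 CPM in sevoflurane libraries and 36.9 to 224 CPM in oxygen libraries, so the groups did not overlap. The source of these transcripts and their part in the results were not tested. The 5 endothelial genes summed to 8.08 to 97.3 CPM in sevoflurane libraries and 10.9 to 25.1 CPM in oxygen libraries. The 5 oligodendrocyte genes summed to 59.8 to 102 CPM in sevoflurane libraries and 86.8 to 148 CPM in oxygen libraries, and no gene of these lists was at 0 in the pooled members.

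The share of members did not differ between the groups beyond the spread of the libraries. Members made up 3.33%, 2.90% and 2.52% of all nuclei in sevoflurane 1, 2 and 3, and 2.93%, 3.70% and 2.87% in oxygen 1, 2 and 3. Their mean share was 2.92% ± 0.405 under sevoflurane and 3.17% ± 0.464 under oxygen (SD, n = 3 each; two-sided exact permutation test over libraries, p = 0.6, smallest possible 0.1). Of excitatory nuclei, members made up 6.13%, 5.26% and 4.80% in the sevoflurane libraries, with 95% Wilson intervals of 5.53 to 6.80%, 4.68 to 5.91% and 4.23 to 5.44%. In the oxygen libraries they made up 5.60%, 6.48% and 5.45%, with intervals of 4.94 to 6.34%, 5.84 to 7.18% and 4.80 to 6.18%. The means were 5.40% ± 0.676 under sevoflurane and 5.84% ± 0.554 under oxygen (SD, n = 3 each; exact permutation test, p = 0.4). The intervals cover counting error only. A share of nuclei does not separate fewer cells of a type from cells with less RNA.

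Depth set how many nuclei met the rule. No excitatory nucleus under 2000 UMIs was a member, 3.90% of those with 5000 to 10000 UMIs were, and 20.4% of those with 20000 UMIs or more. Median UMIs per member were 13559.5, 12129.5 and 15575 in sevoflurane 1, 2 and 3 and 14329, 15157 and 12882 in oxygen 1, 2 and 3, against 6149 to 7775 in other excitatory nuclei over all libraries. The group means of these medians were 13755 ± 1731 under sevoflurane and 14123 ± 1151 under oxygen (SD, n = 3 each; exact permutation test, p = 0.8).

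Every nucleus with at least 2000 UMIs was then thinned to 2000 UMIs, and the Slc17a7, Gad and marker conditions were applied to the thinned counts. By these counts 2256 to 2624 nuclei per sevoflurane library and 1916 to 2402 per oxygen library were excitatory. Of them, 0.648%, 0.669% and 0.887% met the rule in sevoflurane 1, 2 and 3, and 0.811%, 1.08% and 1.51% in oxygen 1, 2 and 3. These shares rest on 17 to 20 nuclei per sevoflurane library and 16 to 29 per oxygen library. The means were 0.734% ± 0.132 under sevoflurane and 1.14% ± 0.355 under oxygen (SD, n = 3 each; exact permutation test, p = 0.2). Left out as shallower than 2000 UMIs were 545 to 639 excitatory nuclei per sevoflurane library and 406 to 635 per oxygen library, none of them a member. Nuclei that lost their Slc17a7 UMIs in the thinning are not in these counts. The main cluster as a whole held 3.10%, 2.95% and 2.65% of excitatory nuclei in sevoflurane 1, 2 and 3 and 3.25%, 3.42% and 3.31% in oxygen 1, 2 and 3. Here the groups did not overlap, at 2.90% ± 0.231 under sevoflurane and 3.33% ± 0.0883 under oxygen (SD, n = 3 each; exact permutation test chosen after the values were seen, p = 0.1, the smallest that 3 against 3 libraries allow).

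**Figure D2:**
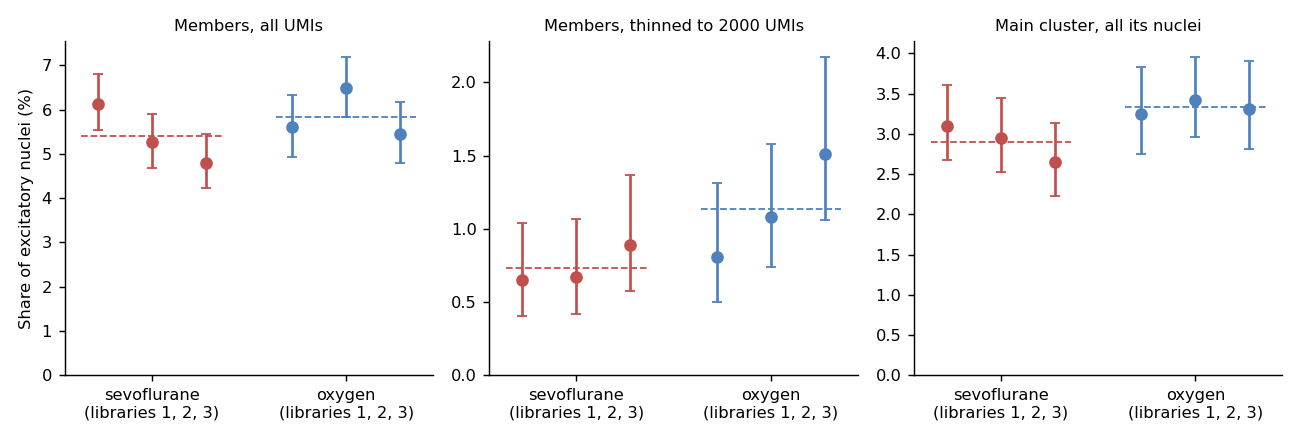
Share of excitatory nuclei per library (points, with 95% Wilson intervals) for members at full depth, members after thinning to 2000 UMIs, and all nuclei of the main cluster; sevoflurane libraries 1, 2 and 3 on the left, oxygen libraries on the right, dashed lines at group means. The groups overlap in the first and second panels, and in the third the sevoflurane libraries lie at 2.65 to 3.10% and the oxygen libraries at 3.25 to 3.42%.

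The response to sevoflurane was tested on UMIs summed over the members of each library. The edgeR quasi-likelihood test over 13276 genes, leaving out the rule's genes, called 81 genes at an adjusted p under 0.05, which is 0.61% of those tested. Of these, 10 were higher under sevoflurane (0.0753%) and 71 lower (0.535%), so falls made up 87.7% of the calls. In each of the 81 the libraries of the groups did not overlap, which was the case for 18.3% of all genes tested. Falls were moderate, with log2 fold changes of -1.46 to -0.38 and a median of -0.54, beside a median of 0.0067 over all genes tested. At an unadjusted p under 0.05 there were 1713 genes (12.9%). The number of calls depended on which libraries were in the fit. Without oxygen 2 no gene was called by edgeR, and 1272 had an unadjusted p under 0.05. There were 9 calls without sevoflurane 2 and 20 without oxygen 1. Of the libraries that go against their sex label, leaving out sevoflurane 1 gave 75 calls, 50 of them among the 81, leaving out sevoflurane 3 gave 38 and leaving out oxygen 3 gave 37.

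On the list of heparan sulfate synthesis and editing, the pathway of Ndst4, 2 of 20 tested genes fell, beside 0.535% of all genes tested. These were Ext1 and Hs6st2. Xylt1, which is not on that list, was among the named falls and is given beside them. Xylt1 encodes the xylosyltransferase that attaches the first sugar of a glycosaminoglycan chain to its core protein. It was at 238, 278 and 261 CPM in sevoflurane 1, 2 and 3 and at 393, 444 and 462 CPM in oxygen 1, 2 and 3. All sevoflurane libraries lay below all oxygen libraries, at a log2 fold change of -0.74 (SE 0.09, edgeR adjusted p = 0.00948). Its span on chromosome 7 is 117380979 to 117673580 (mm10). In main-cluster members the log2 fold change was -0.88 (adjusted p = 0.001), in other excitatory nuclei -0.56 (adjusted p = 0.0139).

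Ext1, a polymerase that lengthens the heparan sulfate chain, was at 596, 527 and 494 CPM in sevoflurane libraries and 799, 813 and 730 CPM in oxygen libraries. The groups did not overlap, and the log2 fold change was -0.53 (SE 0.09, edgeR adjusted p = 0.0165). Hs6st2, which adds sulfate to the 6-O position, was at 93.7, 69.9 and 86.6 CPM in sevoflurane libraries and 121, 126 and 135 CPM in oxygen libraries, at a log2 fold change of -0.61 (SE 0.11, adjusted p = 0.0275). Its fall was -0.88 in main-cluster members (adjusted p = 0.00246) and -0.49 in other excitatory nuclei (adjusted p = 0.108). No gene of the list, from which Ndst4 was set aside, rose. Its median log2 fold change was -0.18, with 13 of the 20 below 0 and 7 above. The list's genes had a median length of 141 kb. Of all tested genes of 100 to 300 kb, 66.3% lay below 0, at a median of -0.09. In other excitatory nuclei 2 of 23 tested genes of the list fell, with 19 below 0 and a median of -0.15. Ndst3 was at a mean of 537 CPM under sevoflurane and 637 CPM under oxygen and did not pass the test (adjusted p = 0.442), and Ndst1 was at 48.8 CPM under sevoflurane and 48.4 CPM under oxygen (adjusted p = 0.985).

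Galnt18, Man2a1 and Chst9 were also called as lower; they are set together by role after the calls were seen, with no list behind them. Galnt18, of the family that starts O-linked sugar chains on proteins, was at 405, 476 and 491 CPM in sevoflurane libraries and 733, 730 and 720 CPM in oxygen libraries, at a log2 fold change of -0.67 (SE 0.08, edgeR adjusted p = 0.00948). Man2a1, a Golgi mannosidase of N-linked chains, had a mean of 104 CPM under sevoflurane and 163 CPM under oxygen. Chst9, a sulfotransferase of N-acetylgalactosamine, had a mean of 82.8 CPM under sevoflurane and 129 CPM under oxygen (log2 fold change -0.64, adjusted p = 0.0158). In main-cluster members Chst9 stood at a log2 fold change of -0.36 and did not pass the test (adjusted p = 0.206).

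Potassium channel subunits of 3 kinds fell. Kcnd3, of the A-type Kv4 channels, was at 202, 208 and 196 CPM in sevoflurane libraries and 290, 330 and 300 CPM in oxygen libraries (log2 fold change -0.60, SE 0.08, edgeR adjusted p = 0.00948). Kcnq3, a subunit of the M-current, was at 648, 837 and 853 CPM in sevoflurane libraries and 1287, 1123 and 1108 CPM in oxygen libraries (log2 fold change -0.59, SE 0.11, adjusted p = 0.0296). Kcnn2, a calcium-activated small-conductance channel, was at 570, 541 and 516 CPM in sevoflurane libraries and 677, 823 and 772 CPM in oxygen libraries (log2 fold change -0.48, SE 0.09, adjusted p = 0.0277). For each of them the groups did not overlap. These were the calls among 22 tested genes of the voltage-gated and calcium-activated potassium channel list, all of them falls, with a list median of -0.22 and 21 of 22 genes below 0. Over all genes tested, 0.535% were called as lower. The list's genes are long, at a median of 209 kb, and 66.3% of all tested genes of 100 to 300 kb lay below 0. With a trend on gene length removed in each library, the list held 1 call and a median of -0.12. In other excitatory nuclei 3 genes of the list fell, with a median of -0.20. Kcnd2, the other Kv4 subunit measured, had means of 3026 CPM under sevoflurane and 3251 CPM under oxygen (adjusted p = 0.645).

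Further genes called as lower are given next, with no common list behind them. Lrrtm3, a postsynaptic adhesion protein that binds neurexins and heparan sulfate proteoglycans, was at 286, 302 and 316 CPM in sevoflurane libraries and 452, 552 and 456 CPM in oxygen libraries (log2 fold change -0.69, SE 0.09, edgeR adjusted p = 0.00948). Sntg2, a syntrophin scaffold, was at 71.2, 54.3 and 59.5 CPM in sevoflurane libraries and 112, 133 and 103 CPM in oxygen libraries (log2 fold change -0.91, SE 0.12). In other excitatory nuclei the log2 fold change of Sntg2 was -0.09 (adjusted p = 0.677), and the difference between the sets of nuclei did not pass the test over all genes (limma, unadjusted p = 0.0038, adjusted p = 0.701). Cobl, an actin nucleator of dendrites, fell by 0.83 on the log2 scale, Ctnna3, an alpha catenin, by 0.72, and Osbpl3, an oxysterol-binding protein, by 0.74. Also called as lower were the synaptic vesicle protein gene Sv2b, the AMPA receptor auxiliary gene Shisa9, Lrfn2, Iqsec1, Dscaml1 and Srgap2, the kinase Camk4, and the microtubule and actin regulators Mical2 and Phactr1.

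The largest fall by fold among the named genes belonged to Rgs20, which encodes a brake on G-protein signalling. Rgs20 was at 20.6, 18.4 and 20.5 CPM in sevoflurane libraries and 43.7, 68.1 and 39.9 CPM in oxygen libraries. Oxygen 2 stood above the other oxygen libraries, and the log2 fold change was -1.37 (SE 0.20, edgeR adjusted p = 0.0158). Serinc2, of a membrane protein family, was at 16.0, 18.9 and 20.3 CPM under sevoflurane and 38.5, 42.7 and 26.4 CPM under oxygen (log2 fold change -0.98). Wwc1, the memory-associated KIBRA scaffold, was at 65.2, 85.9 and 81.1 CPM under sevoflurane and 141, 140 and 115 CPM under oxygen (log2 fold change -0.78). Vash1, a tubulin carboxypeptidase, and Vav3, a guanine nucleotide exchange factor, completed the 12 named falls, at log2 fold changes of -0.75 and -0.71. Vav3 was at a log2 fold change of -0.11 in main-cluster members (adjusted p = 0.93) and at -0.83 in the other members (adjusted p = 0.044).

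Of the 10 genes that rose, 5 carry only predicted-gene or clone names. Muc3a, listed under the name of a membrane mucin, was at 18.2, 13.0 and 7.06 CPM in sevoflurane libraries and 2.73, 2.30 and 2.57 CPM in oxygen libraries. The lowest sevoflurane library was still above every oxygen library, at a log2 fold change of 2.34 (SE 0.36, edgeR adjusted p = 0.016). It was higher in the other sets too, at 1.87 in other excitatory nuclei, 1.70 in nuclei with a CA1 marker list and 1.85 in nuclei with a dentate granule list. Tiparp, an ADP-ribosyltransferase induced by the aryl hydrocarbon receptor and by activity, was at 36.2, 23.5 and 26.0 CPM in sevoflurane libraries and 15.8, 12.8 and 15.1 CPM in oxygen libraries (log2 fold change 0.99, SE 0.19, adjusted p = 0.031). Nr4a3, an orphan nuclear receptor induced by neuronal activity, was at 66.8, 50.2 and 48.5 CPM in sevoflurane libraries and 34.7, 27.6 and 33.1 CPM in oxygen libraries (log2 fold change 0.81, SE 0.15, adjusted p = 0.0277). Sevoflurane 1, the library with Xist, was the highest for all 3 of these genes. Without it, Muc3a was at a log2 fold change of 1.98 (adjusted p = 0.0299), Tiparp at 0.79 (adjusted p = 0.0655) and Nr4a3 at 0.66 (adjusted p = 0.0521).

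Klhl12, a Kelch-like adaptor of a ubiquitin ligase, was at 47.8, 50.2 and 51.5 CPM in sevoflurane libraries and 33.8, 36 and 33.5 CPM in oxygen libraries (log2 fold change 0.53, SE 0.11, edgeR adjusted p = 0.0475). Catspere2 was at 140, 120 and 117 CPM in sevoflurane libraries and 82.1, 82.3 and 98.4 CPM in oxygen libraries (log2 fold change 0.52, adjusted p = 0.0455). Ifrd1, next by p and not called, had a log2 fold change of 0.55 (adjusted p = 0.0505).

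Of 33 tested immediate early and activity genes, Nr4a3 and Tiparp rose and none fell, beside 0.0753% of all genes tested that rose. The list's median log2 fold change was 0.36, with 29 of 33 genes above 0. Its genes are short, at a median of 7.36 kb. Of all tested genes under 10 kb, 39.6% lay below 0, at a median of 0.07. With a trend on gene length removed in each library, 26 of the 33 lay above 0, at a median of 0.30. Fos was at a mean of 6.46 CPM under sevoflurane and 2.48 CPM under oxygen (adjusted p = 0.119), Btg2 at 13.6 CPM under sevoflurane and 7.37 CPM under oxygen (adjusted p = 0.147), and Nr4a1 at 71.8 CPM under sevoflurane and 71.7 CPM under oxygen (adjusted p = 1). The other excitatory nuclei had a list median of 0.38.

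**Figure D3:**
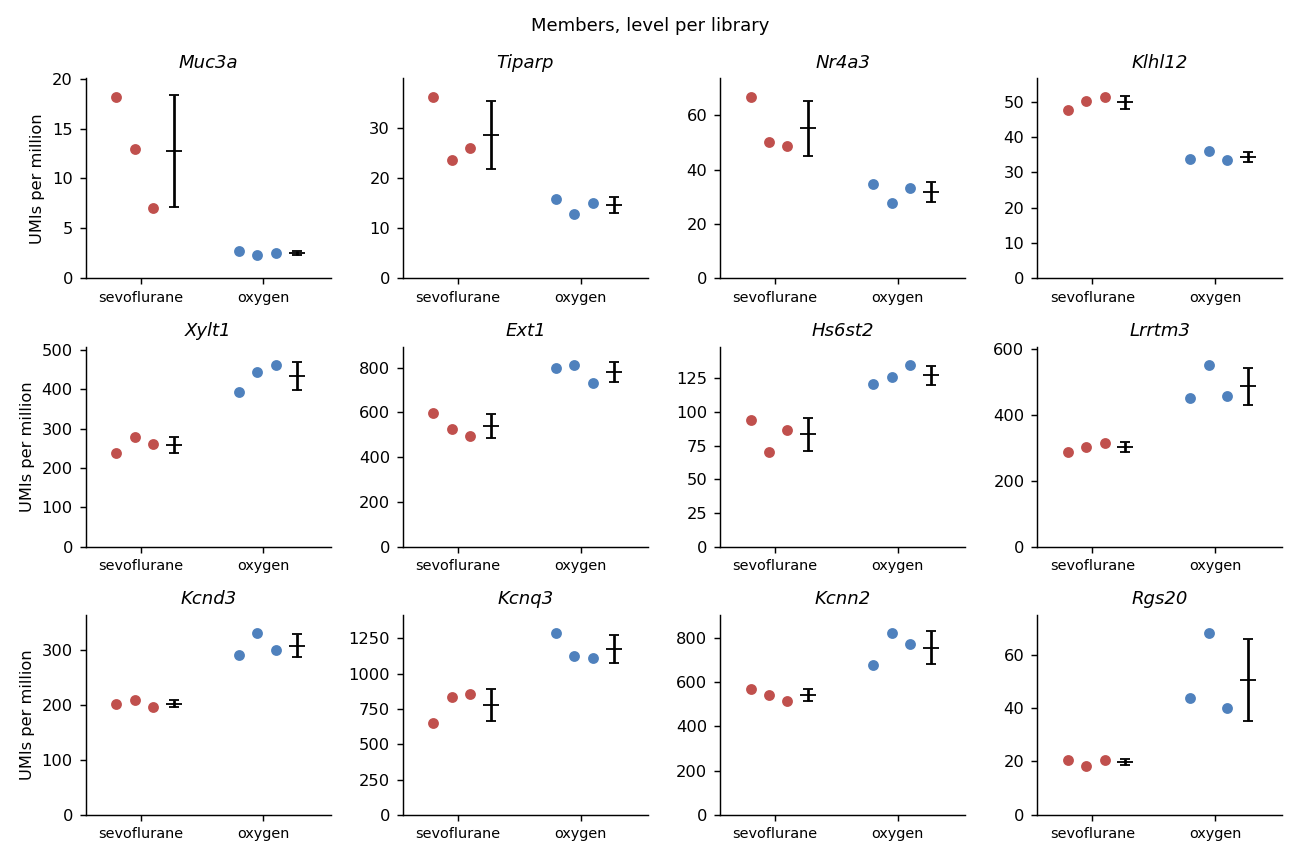
Normalised level (CPM, linear axes from 0) of 12 called genes in the members of each library, sevoflurane left and oxygen right, with the mean and SD of 3 libraries beside the points. Muc3a, Tiparp, Nr4a3 and Klhl12 are higher and the other 8 lower under sevoflurane, and in no panel do the groups overlap.

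Promoters of Nr4a3 and Tiparp, the called genes of the activity list, are shown because activity-induced genes are commonly driven through cyclic AMP response elements. The stretches run over 250 bases before and 50 bases after the annotated start (RefSeq, GRCm38.p6), 5′ to 3′ on the gene's strand, with the half-site TGACG, on either strand, in capitals.
Nr4a3: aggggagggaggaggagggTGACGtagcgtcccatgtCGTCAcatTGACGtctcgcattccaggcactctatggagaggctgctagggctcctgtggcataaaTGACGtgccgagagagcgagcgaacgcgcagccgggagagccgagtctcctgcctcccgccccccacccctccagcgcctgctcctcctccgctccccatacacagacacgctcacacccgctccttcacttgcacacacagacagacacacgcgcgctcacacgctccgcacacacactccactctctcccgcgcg
Tiparp: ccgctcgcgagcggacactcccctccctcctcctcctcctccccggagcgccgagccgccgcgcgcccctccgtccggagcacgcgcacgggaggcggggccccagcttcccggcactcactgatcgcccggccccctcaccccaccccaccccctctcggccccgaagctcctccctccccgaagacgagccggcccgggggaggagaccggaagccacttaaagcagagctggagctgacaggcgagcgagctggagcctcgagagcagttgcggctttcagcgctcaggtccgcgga
The Nr4a3 window, at 48045055 to 48045354 on the plus strand of chromosome 4, held 4 half-sites and no full TGACGTCA. The Tiparp window, at 65528197 to 65528496 on the plus strand of chromosome 3, held neither. Among 32851 promoter windows of 300 bases, 20.8% held a half-site, 0.231% held 4 or more and 1.79% held the full palindrome.

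Receptors and channels on which volatile anaesthetics act gave no call by edgeR. None of 12 GABA-A receptor subunit genes passed the test, 3 had an unadjusted p under 0.05 and DESeq2 called 0; their median log2 fold change was 0.03. None of 17 ionotropic glutamate receptor genes passed, with 16 below 0, a median of -0.20 and 7 at an unadjusted p under 0.05. These genes are long, at a median of 319 kb, and 81.8% of all tested genes of 300 kb or more lay below 0. With the trend on gene length removed, 11 of the 17 lay below 0, at a median of -0.12. DESeq2, run without the low-count filter, tested 18 genes of this list and called 4 as lower and 1 as higher. In this list and those below it could test more genes than edgeR. Grin2a, an NMDA receptor subunit, was nearest, at 2492 CPM under sevoflurane and 3205 CPM under oxygen (edgeR adjusted p = 0.0505). In main-cluster members 1 gene of that list was called, the AMPA receptor subunit Gria1, at a log2 fold change of -0.44 (adjusted p = 0.0298).

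None of 11 two-pore and HCN channel genes was called by edgeR or DESeq2 (median -0.14, 1 at an unadjusted p under 0.05). None of 7 metabotropic glutamate receptor genes was called by edgeR (median -0.22, 4 at an unadjusted p under 0.05), and DESeq2 called 1 as lower. Of 21 voltage-gated sodium and calcium channel genes none was called in members by edgeR (median -0.17, 9 at an unadjusted p under 0.05), and DESeq2 called 3 as lower. With the trend on gene length removed, the median was 0.01 for this list and -0.03 for the metabotropic list. Cacna1h, a T-type calcium channel, was lower in main-cluster members (log2 fold change -0.53, adjusted p = 0.0448).

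Families of the marker genes themselves gave few calls. Of 14 tested fibronectin receptor and integrin-linked genes, with Fn1 set aside, none was called by edgeR (median -0.09, 2 at an unadjusted p under 0.05). DESeq2 called 1 of 16 as lower. Itga8, an integrin chain that binds fibronectin and nephronectin, was at 166 CPM under sevoflurane and 170 CPM under oxygen. None of 5 Fraser complex genes was called by edgeR (median -0.07, 1 at an unadjusted p under 0.05), nor any of 14 cadherins (median -0.22, 4 at an unadjusted p under 0.05). DESeq2 called 1 of 8 Fraser complex genes and 1 of 14 cadherins as lower. In main-cluster members 1 cadherin gene rose, Cdh7, at a log2 fold change of 0.68 (edgeR adjusted p = 0.0343). Of 15 Kelch-like genes Klhl29 fell, at 320 CPM under sevoflurane and 431 CPM under oxygen (edgeR adjusted p = 0.0263), and the list's median was 0.11. Klhl12 is not on that list.

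Among the remaining lists, Hsp90b1, a chaperone of the endoplasmic reticulum, was the one call among 21 chaperone genes, at a mean of 55.3 CPM under sevoflurane and 76.1 CPM under oxygen (edgeR adjusted p = 0.0475). Hspa5, of the same compartment, was at 27.0 CPM under sevoflurane and 38.0 CPM under oxygen (adjusted p = 0.187), and Pdia6 at 19.5 CPM under sevoflurane and 31.2 CPM under oxygen (adjusted p = 0.066). The list's median was -0.23. Of 28 vesicle release genes none was called by edgeR (median -0.10, 9 at an unadjusted p under 0.05) and DESeq2 called 4 as lower. By neither tool was any call made among 21 cholesterol synthesis genes (median 0.26, 4 at an unadjusted p under 0.05), 11 glucocorticoid-responsive genes (median 0.07, 4), 19 clock genes (median -0.05, 5) or 16 polyamine and methylthioadenosine genes (median 0.08, 2). Of 9 tested genes that earlier results of these libraries gave as changed in several cell classes, Muc3a and Tiparp rose and Chst9 and Mllt3 fell; that list was chosen on these samples, so it is no independent evidence of its direction.

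Main-cluster members alone gave more calls from fewer nuclei. Of 10963 genes, 143 were called (1.3%), 24 higher (0.219%) and 119 lower (1.09%), and 57 of the 81 were among them. The 4 named next were chosen after their values were seen. Prkca, a protein kinase C, was at 139, 126 and 126 CPM in sevoflurane libraries and 219, 246 and 185 CPM in oxygen libraries (log2 fold change -0.74, SE 0.12, edgeR adjusted p = 0.00406). Pcsk1, a protease that matures neuropeptide precursors, was at 75.7, 50.9 and 53.1 CPM in sevoflurane libraries and 30.5, 28.2 and 29.6 CPM in oxygen libraries (log2 fold change 1.04, SE 0.18, adjusted p = 0.00552). Stac was at 178, 147 and 195 CPM in sevoflurane libraries and 325, 335 and 226 CPM in oxygen libraries (log2 fold change -0.77, adjusted p = 0.0208). Rbfox3, the neuronal nuclear antigen NeuN, was at 245, 306 and 326 CPM in sevoflurane libraries and 459, 413 and 412 CPM in oxygen libraries (log2 fold change -0.55, adjusted p = 0.0211). In all members these genes did not pass the test. Members outside the main cluster gave 4 calls of 11865 genes (0.0337%), Ctnna3, Vav3, Shisa9 and Galnt18, all lower under sevoflurane, with 1216 genes (10.2%) at an unadjusted p under 0.05.

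The other sets of nuclei responded at their own rates. Other excitatory nuclei gave 273 calls of 19390 genes (1.41%), 85 higher (0.438%) and 188 lower (0.97%). Nuclei with a CA1 list, 3699 in number, gave 120 calls (0.808%), 26 higher (0.175%) and 94 lower (0.633%). The 7967 nuclei with a dentate granule list gave 507 (3.11%), 150 higher (0.921%) and 357 lower (2.19%). These sets come from the same libraries as the members. Galnt18 had a log2 fold change of -0.67 in members, -0.35 in other excitatory nuclei, -0.59 in CA1-list nuclei and -0.24 in dentate-list nuclei. Lrrtm3 was at -0.69 in members and at -0.83, -1.02 and -0.87 in the same other sets.

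**Figure D4:**
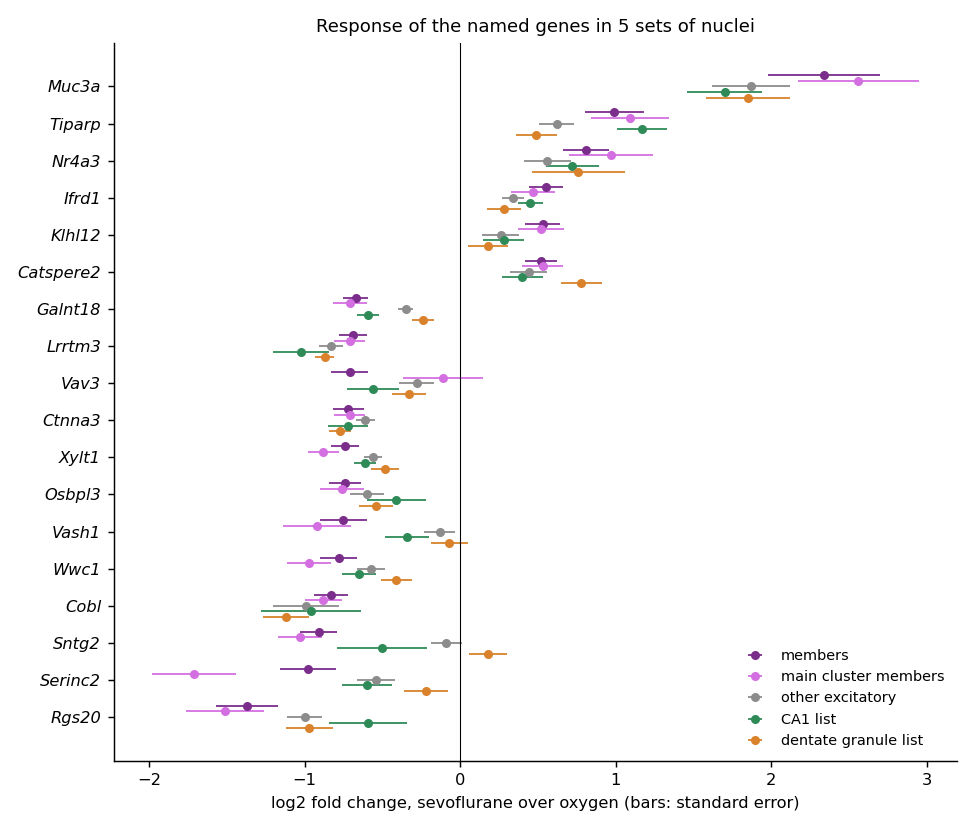
Log2 fold change, sevoflurane over oxygen, with its standard error, of the 18 genes named by rule in members, main-cluster members, other excitatory nuclei and nuclei with a CA1 or dentate granule list. Muc3a lies to the right at 1.70 to 2.56 in all sets, and Sntg2 lies at -0.91 in members and -0.09 in other excitatory nuclei.

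The response difference, members minus other excitatory nuclei of the same library, gave 0 calls of 13276 genes by limma (0%), with 803 genes (6.05%) at an unadjusted p under 0.05. So no gene's response was shown to be particular to the members. The smallest p belonged to Cfap70, a gene of cilia, whose response was 0.80 higher on the log2 scale in members (SE 0.10, limma unadjusted p = 0.000137, adjusted p = 0.598). In members Cfap70 was at 8.20, 8.91 and 10.5 CPM in sevoflurane libraries and 4.37, 5.17 and 6.43 CPM in oxygen libraries, while in other excitatory nuclei it averaged 6.74 CPM under sevoflurane and 7.14 CPM under oxygen. Wdr17 was at 187, 187 and 184 CPM in sevoflurane libraries and 163, 193 and 174 CPM in oxygen libraries among members, and at a mean of 162 CPM under sevoflurane and 222 CPM under oxygen in other excitatory nuclei. The next by p were Adam2, Vash1, Blvrb, Smim17, Tmco4 and Top1mt, each at an adjusted p of 0.598.

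Fold change went with gene span, the length of the gene from start to end in the annotation. The 71 genes that fell had a median span of 232 kb and the 10 that rose 39.4 kb, beside 28.0 kb over all genes tested. Of the falls, 56 were in genes over 100 kb, which were 17.4% of the genes tested. The median log2 fold change in members was 0.07 over 2824 genes under 10 kb, -0.09 over 1749 genes of 100 to 300 kb and -0.17 over 556 genes of 300 kb or more. Other excitatory nuclei had 0.10, -0.12 and -0.20 over the same genes. With a trend on span removed in each library, 30 genes were called, 9 higher and 21 lower, and 26 of the 81 were among them. Xylt1, Galnt18, Lrrtm3, Sntg2, Rgs20, Kcnd3 and Muc3a kept their calls. Tiparp, Nr4a3, Klhl12, Vash1 and Hsp90b1 were not called, at adjusted p-values of 0.0528 to 0.0663, although their log2 fold changes hardly moved: 0.96, 0.80, 0.51, -0.79 and -0.50 with the trend removed, beside 0.99, 0.81, 0.53, -0.75 and -0.46 without. Ext1, Hs6st2, Kcnq3, Kcnn2, Ctnna3, Vav3, Chst9, Klhl29 and Mllt3 were not called either, at log2 fold changes of -0.55 to -0.27 with the trend removed, beside -0.72 to -0.41 without. Neither the heparan sulfate list nor the activity gene list then held a call. What sets the relation to span was not tested.

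**Figure D5:**
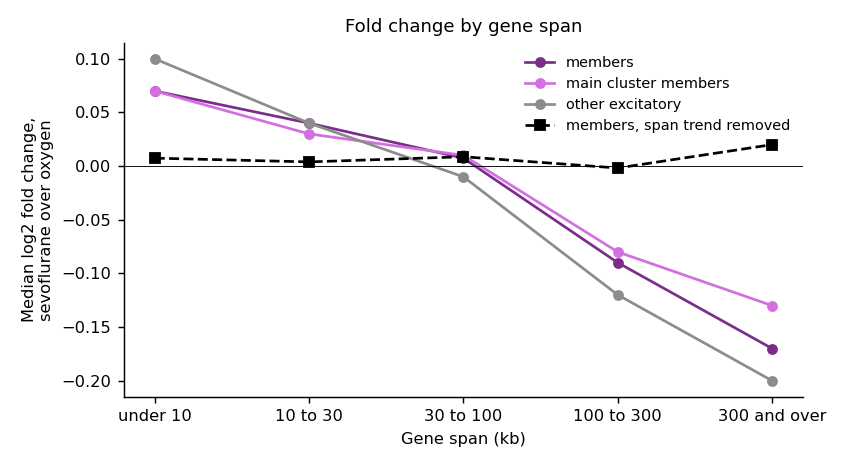
Median log2 fold change, sevoflurane over oxygen, of genes in 5 classes of gene span (kb) in members, main-cluster members and other excitatory nuclei, and in members after a span trend was removed from each library. The medians in members run between 0.07 for genes under 10 kb and -0.17 for genes of 300 kb and over.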

How the data were processed

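The authors deposited 1 matrix of UMI counts per library, made with Cell Ranger 7.1.0 on mm10 after fastp, per the submitters' processing notes. The counts were used as deposited, from 32285 genes and 6 libraries. Members were found by the rule in the report; no doublet was removed. UMIs were summed over the members of each library and tested with edgeR 4.0.16 (R 4.3.3): TMM scaling, filterByExpr, robust quasi-likelihood test with treatment as the only term, and Benjamini-Hochberg adjustment over all genes. Levels in CPM of tested genes use TMM-scaled library sizes; marker, rule and profile levels divide by summed UMIs. The response difference used limma 3.58.1 (trend, robust) on within-library differences of log2 CPM (prior count 2). Shares were compared by two-sided exact permutation tests over the libraries. Thinning drew UMIs without replacement. Excitatory nuclei were clustered with scanpy 1.11.5 (3000 variable genes, 40 components, 20 neighbours, Leiden resolution 1.0); libraries were not integrated. Spans come from GENCODE M21, which matched 32235 genes.

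Named genes were those called, at 10 CPM or more in 1 group, with groups that did not overlap: up to 12 per direction by fold, predicted names left out, filled up to 6 by p; the called members of each list; the 8 smallest p of the difference; and the 15 highest and 8 lowest ratios to other excitatory nuclei with at least 20 CPM. A few genes that met these rules are not reported here. Members, lists and tests were chosen with earlier results of these data known. In simulated counts 200 genes among 13039 were changed, all of them at a mean of 10 CPM or more. The edgeR step called 93% of genes changed by a log2 fold of 1, with 14 false calls among 205. The limma step for the difference called 17% of those and 95% of genes changed by 2. Changes under log2 1 were not simulated. Other excitatory nuclei were drawn independently of the members, so variation shared within a library was not simulated either. Alternatives were RLE scaling, DESeq2 1.42.0, other filters, marker numbers and nuclei, a span trend removed, a replicate term and leaving out each library.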

Additional observations from a re-analysis of the deposited data

How the results depend on the processing

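The count of called genes, 81 with all members, was 253 with DESeq2 (17 higher, 236 lower), 539 without a filter on low counts (150 higher, 389 lower), 143 with only members in the main cluster, 30 with the span trend removed (9 higher, 21 lower), 4 with only members outside the main cluster (an alternative chosen after seeing the data), and 0 to 75 with 1 library left out. It stayed within 1.5 times of 81 with RLE scaling, at least 4 markers, Scrublet-scored nuclei left out, at most 1% mitochondrial UMIs, or nuclei with non-neuronal markers left out (59 to 115 calls; the last chosen after seeing the data). The cause of these shifts was not tested, except that fewer nuclei enter some fits. Rises were 12.3% of the calls, and 27.8% without the filter, 30% with the span trend removed and 34.2% without sevoflurane 3. No named gene changed direction under any alternative run. The replicate block gave 33 calls. Same-numbered libraries did not deviate together (correlations -0.17, -0.0771 and -0.0793). With 3 libraries per group these values cannot decide whether the numbers pair the samples. Under the block 16 of 27 named genes stayed on the same side of the threshold and the other 11 lost their call. The response difference gave 0 calls under every alternative run, with 736 to 889 genes at an unadjusted p under 0.05.

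The shares and the median depth had no test past its threshold. The difference in share of all nuclei, -0.248 percentage points, ran from -0.455 to 0.0197 with 1 library left out, the last without oxygen 2; that in share of excitatory nuclei from -0.810 to -0.126; and that at equal depth from -0.564 to -0.212. At equal depth with at least 4 markers the difference turned to 0.0282, at mean shares of 0.121% under sevoflurane and 0.0928% under oxygen. With at most 1% mitochondrial UMIs it was -0.0750, against -0.401 as reported. Thinned to 4000 UMIs per nucleus it was -0.458. With Scrublet-scored nuclei left out it was -0.429 (exact permutation test, p = 0.1, the smallest possible). With at least 4 markers the difference in share of excitatory nuclei was -0.0978, against -0.443 as reported. The difference in median UMIs, -368, ran from -1278 to 445 with 1 library left out, turning without sevoflurane 2 (445) and without oxygen 2 (149), and was 126 in the main cluster. Summed counts of 227 to 335 members per library limit genes of low level. In the simulated counts a difference of log2 1 in response between sets of nuclei was mostly not called by the difference test.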
